A study of Mus musculus with 12 samples.

Results

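The 39 genes described here encode the antioxidant and redox enzymes of the mouse heart ventricle, from the superoxide dismutases to the NADPH oxidase Nox4. They were taken by gene symbol from a list drawn up with earlier results of these data known, by a rule that itself uses no measured value, and all 39 were found among the 14957 genes of the count tables. All 39 also passed the filter on low counts, so no member is missing from the tests.

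Bulk RNA sequencing was read from snap-frozen ventricles of 12 wild-type C57Bl/6J mice in 3 groups of 4. TAC-BacNav mice had transverse aortic constriction (TAC), a surgical narrowing of the aorta that overloads the left ventricle with pressure. They were injected with AAV9-MHCK7-BacNav-mScarlet, an adeno-associated virus in which MHCK7, a regulatory cassette active in striated muscle, drives BacNav, an engineered bacterial voltage-gated sodium channel, along with the red fluorescent protein mScarlet. TAC-mScarlet mice had the same surgery and received AAV9-MHCK7-mScarlet, the vector without the channel. Sham-NT mice were sham-operated and given PBS, so that in TAC-mScarlet against Sham-NT the constriction and the vector cannot be told apart. Ages and sexes were not given in the sources used here.

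Superoxide dismutases turn superoxide, which leaks from the respiratory chain and is made by NADPH oxidases, into hydrogen peroxide. Catalase, the glutathione peroxidases and the peroxiredoxins then reduce the peroxide, and the glutathione and thioredoxin systems return these enzymes to their reduced form at the expense of NADPH. Many of the genes answer to the transcription factor NRF2 (gene Nfe2l2), which KEAP1 holds at a low level until electrophiles or oxidants modify KEAP1. NRF2 binds the antioxidant response element, whose core is TGACNNNGC.

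Total counts per library ran from 7.36 to 11.5 M (mega-counts) in TAC-BacNav, from 8.28 to 9.81 M in TAC-mScarlet and from 5.36 to 7.84 M in Sham-NT, so each TAC-mScarlet library was deeper than every Sham-NT library. Ankrd1, a stretch-responsive sarcomere gene used here as a check of the constriction, stood at 1704 to 3495 counts-per-million (CPM) in TAC-BacNav, at 4175 to 7813 CPM in TAC-mScarlet and at 605 to 947 CPM in Sham-NT, with library-size scaling. The summed level of 8 cardiomyocyte markers was 57055 to 75727 CPM in TAC-BacNav, 47525 to 62737 CPM in TAC-mScarlet and 75503 to 80775 CPM in Sham-NT. That of 7 fibroblast markers was 2862 to 3237 CPM in TAC-BacNav, 3029 to 5307 CPM in TAC-mScarlet and 2123 to 2838 CPM in Sham-NT. For 6 macrophage and monocyte markers it was 485 to 606 CPM in TAC-BacNav, 494 to 813 CPM in TAC-mScarlet and 339 to 427 CPM in Sham-NT. TAC-mScarlet 3 had the lowest cardiomyocyte sum and the highest fibroblast and macrophage sums of all 12 libraries. The liver marker Ttr did not exceed 1.33 CPM in any library.

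Per kilobase of annotated exon, the most abundant member was Gpx4, the peroxidase that reduces lipid hydroperoxides in membranes, at 523 CPM per kb in TAC-BacNav, 541 in TAC-mScarlet and 595 in Sham-NT. The mitochondrial peroxiredoxin gene Prdx3 followed, at 291 CPM per kb in TAC-BacNav, 268 in TAC-mScarlet and 317 in Sham-NT. The microsomal transferase gene Mgst3 came next in TAC-BacNav, at 245 CPM per kb, and in Sham-NT, at 292. In TAC-mScarlet Gpx3, at 256 CPM per kb, lay above Mgst3, at 226. At the low end, Nnt, the mitochondrial transhydrogenase that makes NADPH, stood at 0.554 CPM per kb in TAC-BacNav, 0.365 in TAC-mScarlet and 0.595 in Sham-NT. Nox4 stood at 0.754 CPM per kb in TAC-BacNav, 1.66 in TAC-mScarlet and 0.188 in Sham-NT. The C57BL/6J strain is known to carry a deletion in Nnt that leaves no working enzyme. The exon length used for a gene joins the exons of all its annotated transcripts, so these levels are approximate.

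Promoter stretches that hold the NRF2 core are shown for 4 members, because NRF2 targets are compared between the groups below, along with more of the promoter of Sod1, one of the 3 members called. The first RefSeq start site listed for each gene on GRCm38.p6 gave a window of 250 bases before to 50 after the start for 32 of the 39 members. The core TGACNNNGC, searched on both strands, was found in 7 of the 32 windows (21.9%): those of Gclm, Mgst1, Nfe2l2, Prdx1, Sod1, Srxn1 and Ucp2. Of 10374 windows of tested genes, 15.1% hold it. Over all listed starts of the members, 8 of 42 windows hold the core, which adds Txnrd1 to the genes named. Nqo1, an NRF2 target compared below, had a window but no match to the core. The stretches of Sod1, Prdx1, Gclm and Ucp2 are printed; those of Mgst1 and Nfe2l2 overlap annotated exons and the match of Srxn1 lies after the start, so these 3 are named only. A match is a description of the letters in the window and not evidence of binding. The 49-base stretches below run 5′ to 3′ on the strand of the gene, all 4 on the plus strand, and the capitals mark the 9-base core as it reads on the strand opposite to the gene. They lie at chr16:90220686-90220734 (Sod1), chr4:116685446-116685494 (Prdx1), chr3:122245403-122245451 (Gclm) and chr7:100493272-100493320 (Ucp2), upstream of the first exon and outside annotated exons.
Sod1: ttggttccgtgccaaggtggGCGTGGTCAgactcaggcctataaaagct
Prdx1: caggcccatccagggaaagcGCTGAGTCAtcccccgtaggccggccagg
Gclm: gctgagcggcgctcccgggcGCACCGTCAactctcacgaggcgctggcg
Ucp2: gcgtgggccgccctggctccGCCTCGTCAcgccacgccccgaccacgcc

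A longer stretch of the Sod1 promoter, chr16:90220612-90220751 on the plus strand, ends just before the start site. Capitals here mark GGGCGG on either strand, the core of the GC box bound by SP1, where neighbouring matches run together.
Sod1: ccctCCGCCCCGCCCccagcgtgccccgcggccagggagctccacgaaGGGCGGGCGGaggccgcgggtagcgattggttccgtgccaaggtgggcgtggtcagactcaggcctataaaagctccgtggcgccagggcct
GGGCGG on either strand was present in 26 of the 32 member windows (81.2%), against 63.5% of the windows of tested genes. No member window had the 2 motifs overlapping.

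The first comparison, TAC-mScarlet against Sham-NT, shows how the redox genes stood in overloaded ventricles that received the vector without the channel. Of the 39 genes 3 fell: the cytosolic superoxide dismutase Sod1, the mitochondrial superoxide dismutase Sod2 and the mitochondrial and peroxisomal peroxiredoxin Prdx5. No member rose, and 36 of 39 did not pass the test. A gene was called at an adjusted p below 0.05, from edgeR's quasi-likelihood F test adjusted by Benjamini-Hochberg over 13910 genes. The 3 members are 7.69% of the 39, where 5.17% of all genes tested were called, 2.65% as higher and 2.52% as lower. At an unadjusted p below 0.05 stood 14 members (35.9%), beside 22.2% of all genes. The libraries of the 2 groups did not overlap for 8 members (20.5%), all lower in TAC-mScarlet, where 13.1% of all genes were separated in this way, 6.33% as higher and 6.78% as lower. The median fitted log2 fold change of the members was -0.07, beside 0.0044 over all genes tested, with 24 members below 0 and 15 above.

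Sod1 (ENSMUSG00000022982.10, chromosome 16, 90220754 to 90226329, GRCm38) had 329, 304, 300 and 308 CPM in the 4 TAC-mScarlet libraries, against 530.3, 619.9, 334 and 531 CPM in Sham-NT. Every TAC-mScarlet library lay below every Sham-NT library, though Sham-NT 3 came within a few CPM of TAC-mScarlet 1. The group means were 310.3 ± 13.1 CPM in TAC-mScarlet and 504 ± 121 CPM in Sham-NT (SD, n = 4 each). The fitted log2 fold change was -0.70 ± 0.18 (SE), with an adjusted p of 0.0348. A processed pseudogene, Gm8566, is 98.0% identical to part of Sod1 and was counted as a gene of its own, so that the authors' counting could have split reads between them.

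Sod2 (ENSMUSG00000006818.5, chromosome 17, 13006846 to 13040063), which clears superoxide in the mitochondrial matrix, had 639, 581, 438 and 636 CPM in TAC-mScarlet, against 750.4, 802, 894 and 848 CPM in Sham-NT. The groups did not overlap, and TAC-mScarlet 3 was the lowest of the 12 libraries. Means of 573 ± 94.1 CPM in TAC-mScarlet and 824 ± 61.7 CPM in Sham-NT gave a log2 fold change of -0.52 ± 0.13 (adjusted p = 0.0343).

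Prdx5 (ENSMUSG00000024953.17, chromosome 19, 6906697 to 6910106) had 417, 358, 366 and 386 CPM in TAC-mScarlet, against 556, 588, 443 and 622 CPM in Sham-NT. Again the groups did not overlap, with Sham-NT 3 nearest to TAC-mScarlet. Means were 381 ± 26.2 CPM in TAC-mScarlet and 552 ± 77.8 CPM in Sham-NT, a log2 fold change of -0.53 ± 0.14 (adjusted p = 0.0424). Trmt112 on the opposite strand covers 19.1% of the Prdx5 exons, and without a known strand setting, reads of the 2 genes cannot be told apart there.

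**Figure D1:**
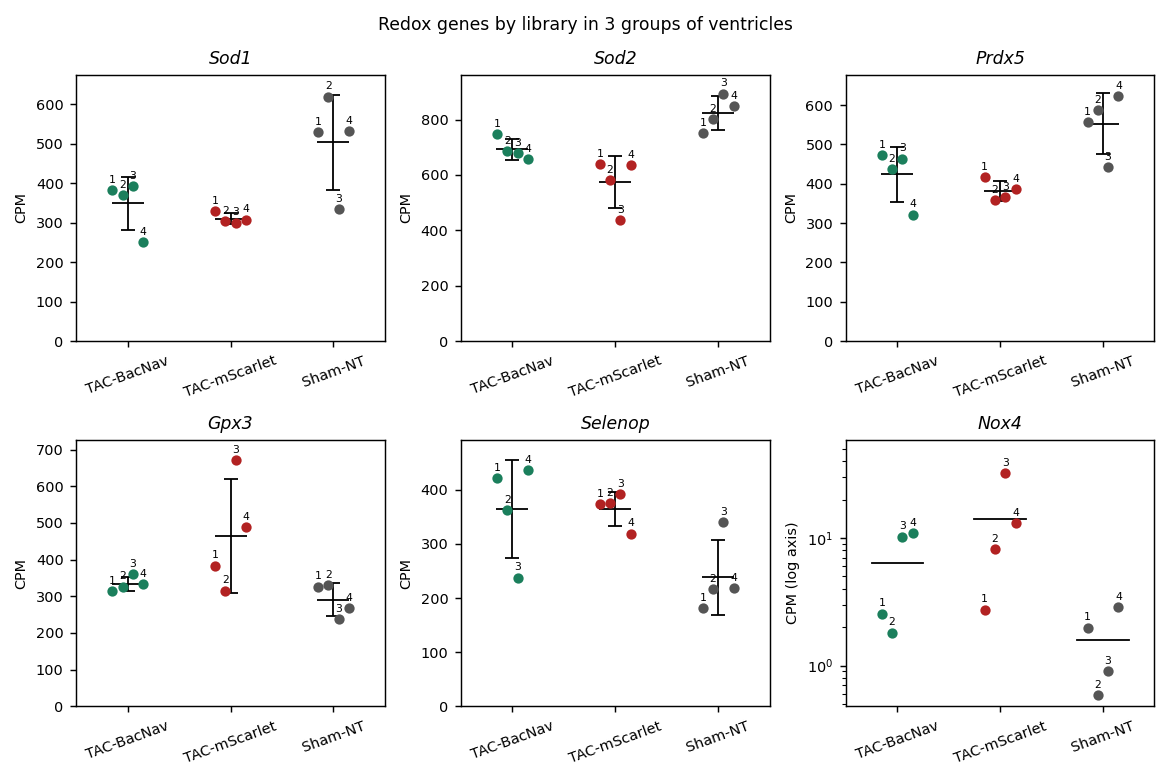
TMM-scaled CPM of 6 redox genes in each library of TAC-BacNav, TAC-mScarlet and Sham-NT, with the mouse number beside each point. Horizontal marks are group means and bars 1 SD (n = 4); the Nox4 axis is logarithmic and shows the mean alone. For Sod1, Sod2 and Prdx5 all TAC-mScarlet points lie below all Sham-NT points, whereas for Gpx3 and Selenop the ranges of these 2 groups overlap.

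These 3 calls rested on small margins. No member was called when mouse 1, 2 or 4 of Sham-NT or mouse 3 or 4 of TAC-mScarlet was left out. With 1 library left out, Sod1 ran from -0.85 to -0.58 (adjusted p from 0.00811 to 0.118) and Prdx5 from -0.62 to -0.47 (adjusted p from 0.0148 to 0.131), both called only without Sham-NT 3. Sod2 ran from -0.58 to -0.42 (adjusted p from 0.0369 to 0.0976) and was called only without Sham-NT 3 or TAC-mScarlet 1. Scaling by library size in place of TMM moved the median of all genes by 0.13 on the log2 scale and gave 2 members as higher, Gpx3 and Selenop, and 1 as lower, Sod1, with 697 of all genes higher and 205 lower, against 369 and 350 with TMM. Cardiomyocyte marker sums were lower in TAC-mScarlet, beside the fall of Sod1, Sod2 and Prdx5. Of the 8 cardiomyocyte markers 3 were called lower, whereas 2 had fitted values above 0, Actc1 (0.0006) and Mybpc3 (0.16). The part of these markers in the result was not tested. In bulk tissue, fewer cells of a type and less RNA per cell cannot be told apart.

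Among the superoxide dismutases, Sod3, the secreted enzyme of the extracellular matrix, was the exception in sign. Its levels were 33.6, 31.9, 57.9 and 52.6 CPM in TAC-mScarlet, against 25.6, 33.6, 30.8 and 36.7 CPM in Sham-NT. The high values were those of TAC-mScarlet 3 and 4, and the groups overlapped (0.48 ± 0.19, adjusted p = 0.162).

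Of the 4 peroxide-reducing enzymes outside the peroxiredoxins, none passed the test, and the 3 other than Gpx4 had positive fold changes. Gpx3, the secreted plasma glutathione peroxidase, had 384, 315, 671 and 489 CPM in TAC-mScarlet, against 327, 330, 238 and 267 CPM in Sham-NT. TAC-mScarlet 3 stood far above the rest, and TAC-mScarlet 2 lay within the Sham-NT range. The log2 fold change of 0.68 ± 0.19 just missed the threshold (adjusted p = 0.0506). It was 0.45 (adjusted p = 0.161) without TAC-mScarlet 3, and Gpx3 was called without TAC-mScarlet 1 (adjusted p = 0.0448) or TAC-mScarlet 2 (adjusted p = 0.0209), and with no filter on low counts (adjusted p = 0.0486). Gpx1, the cytosolic and mitochondrial glutathione peroxidase, gave 0.42 ± 0.21 (adjusted p = 0.248), and Cat, peroxisomal catalase, gave 0.10 ± 0.12 (adjusted p = 0.708).

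The peroxiredoxins, thiol peroxidases that act on hydrogen peroxide, held 1 called gene of 7 with their repair enzyme sulfiredoxin, Srxn1. Of the 7, 6 had values below 0, with a median of -0.16. Prdx2, the cytosolic form abundant in red cells, had 416, 395, 410.1 and 387 CPM in TAC-mScarlet, against 559, 594, 428 and 548 CPM in Sham-NT. The libraries did not overlap, but the test was not passed (-0.40 ± 0.14, adjusted p = 0.0958), and its exons overlap Rnaseh2a and Junb. Prdx3, the major peroxiredoxin of mitochondria, gave -0.24 ± 0.13 (adjusted p = 0.273), and Prdx1, whose promoter carries the NRF2 core shown above, gave -0.04 ± 0.14 (adjusted p = 0.917). Srxn1, whose product reduces overoxidised peroxiredoxins, gave 0.30 ± 0.19 (adjusted p = 0.389).

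In the thioredoxin and glutaredoxin system none of 6 genes was called. The mitochondrial pair, thioredoxin Txn2 (-0.27 ± 0.12, adjusted p = 0.195) and its reductase Txnrd2 (-0.35 ± 0.13, adjusted p = 0.127), had no overlap between the groups' libraries and was lower in each TAC-mScarlet library. Their cytosolic counterparts gave 0.06 ± 0.15 (Txn1, adjusted p = 0.869) and 0.10 ± 0.17 (Txnrd1, adjusted p = 0.793). Txnip, the arrestin-like protein that binds and inhibits thioredoxin, had 753, 725, 588 and 277 CPM in TAC-mScarlet, against 691, 788, 397 and 507 CPM in Sham-NT. The spread within each group far exceeded the difference between them (-0.02 ± 0.31, adjusted p = 0.978). An antisense transcript, Gm15441, covers 19.4% of the Txnip exons.

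Glutathione is made by glutamate-cysteine ligase (Gclc and Gclm) and glutathione synthase (Gss), and glutathione reductase (Gsr) recycles it with NADPH. None of these, nor Nnt, was called, and the adjusted p ran from 0.253 upward. Values were 0.33 ± 0.19 for Gclc, 0.08 ± 0.17 for Gclm, 0.11 ± 0.15 for Gss and 0.29 ± 0.14 for Gsr. Nnt had 26, 38, 13 and 14 counts in TAC-mScarlet, against 21, 30, 26 and 21 counts in the shallower Sham-NT libraries, and gave -0.70 ± 0.39 (adjusted p = 0.317). A second annotated Nnt gene on the same strand shares 47.4% of its exon bases, which makes this count uncertain.

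Glutathione transferases conjugate electrophiles to glutathione. All 6 among the members had values below 0, beside 49.5% of all genes tested, with a median of -0.37. None of the 6 passed the test. The lowest adjusted p was that of Gstt1 (-0.52 ± 0.19, adjusted p = 0.107), followed by Gstp1 (-0.48 ± 0.18, adjusted p = 0.122), which shares near-identical sequence with Gstp2 and a pseudogene. Gstm1, which also has a near-identical pseudogene, had no overlap between the groups' libraries (-0.38 ± 0.15, adjusted p = 0.161). With the 2 microsomal genes Mgst1 and Mgst3, the range was from -0.52 to -0.11. Mgst1 went above 0 without Sham-NT 2, at 0.10, and also under library-size scaling.

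The NRF2 pathway showed no called gene. Nfe2l2 itself had 107, 124, 118 and 110.3 CPM in TAC-mScarlet, against 136, 115, 123 and 96.4 CPM in Sham-NT, and its log2 fold change was -0.03 ± 0.12 with a 95% interval from -0.29 to 0.22. Keap1, its negative regulator, was lower in each TAC-mScarlet library than in any Sham-NT library, by little (-0.24 ± 0.11, adjusted p = 0.222). Nqo1, the quinone reductase often used as a readout of NRF2, had 165, 161, 145 and 104 CPM in TAC-mScarlet, against 132, 137, 78.6 and 91.6 CPM in Sham-NT. These ranges overlapped (0.39 ± 0.20, adjusted p = 0.256). Hmox1, the inducible haem oxygenase, had 6.21, 10.9, 11.6 and 10.7 CPM in TAC-mScarlet, against 6.74, 6.24, 9.05 and 5.92 CPM in Sham-NT. TAC-mScarlet 2, 3 and 4 exceeded all Sham-NT libraries, and the test was not passed (0.48 ± 0.26, adjusted p = 0.282).

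Of the 2 genes for oxidant production, Nox4 had the largest fitted change of the 39. This NADPH oxidase, active without an inducing signal and making mainly hydrogen peroxide, had 2.75, 8.15, 32.1 and 13.1 CPM in TAC-mScarlet, against 1.98, 0.585, 0.905 and 2.88 CPM in Sham-NT. The counts behind them were 23, 72, 335 and 113 in TAC-mScarlet, against 10, 3, 7 and 18 in Sham-NT. TAC-mScarlet 1 lay below Sham-NT 4, so the groups overlapped, while the other 3 were higher than every Sham-NT library. The log2 fold change was 3.15 ± 0.89 (adjusted p = 0.0660), with a 95% interval from 1.19 to 5.10, whereas DESeq2 called it (adjusted p = 0.00589). Without TAC-mScarlet 3 it was 2.32 (adjusted p = 0.160) and without TAC-mScarlet 1 it was called, at 3.48 (adjusted p = 0.0323). Cyba, the p22phox subunit that partners Nox4, had 26.7, 30.8, 43.0 and 28.5 CPM in TAC-mScarlet, against 43.0, 41.4, 26.0 and 46.8 CPM in Sham-NT. Its groups overlapped (-0.28 ± 0.20, adjusted p = 0.451).

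Selenop, the secreted selenoprotein that carries selenium between tissues, had 374, 375, 392 and 319 CPM in TAC-mScarlet, against 181, 216, 340 and 218 CPM in Sham-NT. Sham-NT 3 was the only Sham-NT library in the TAC-mScarlet range, and the test was not passed (0.61 ± 0.20, adjusted p = 0.0855). Without Sham-NT 3 Selenop was called, at 0.83 (adjusted p = 0.0150). Ccdc152 on the opposite strand covers 15.4% of its exons. The fibroblast and macrophage marker sums given above were on the high side in TAC-mScarlet, and 2 of 7 fibroblast and 5 of 6 macrophage markers were called higher, beside the positive values of Gpx3, Sod3, Nox4 and Selenop. Their part in these values was not tested. Ucp2, an uncoupling protein family member of the inner mitochondrial membrane, gave -0.12 ± 0.22 (adjusted p = 0.813).

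**Figure D2:**
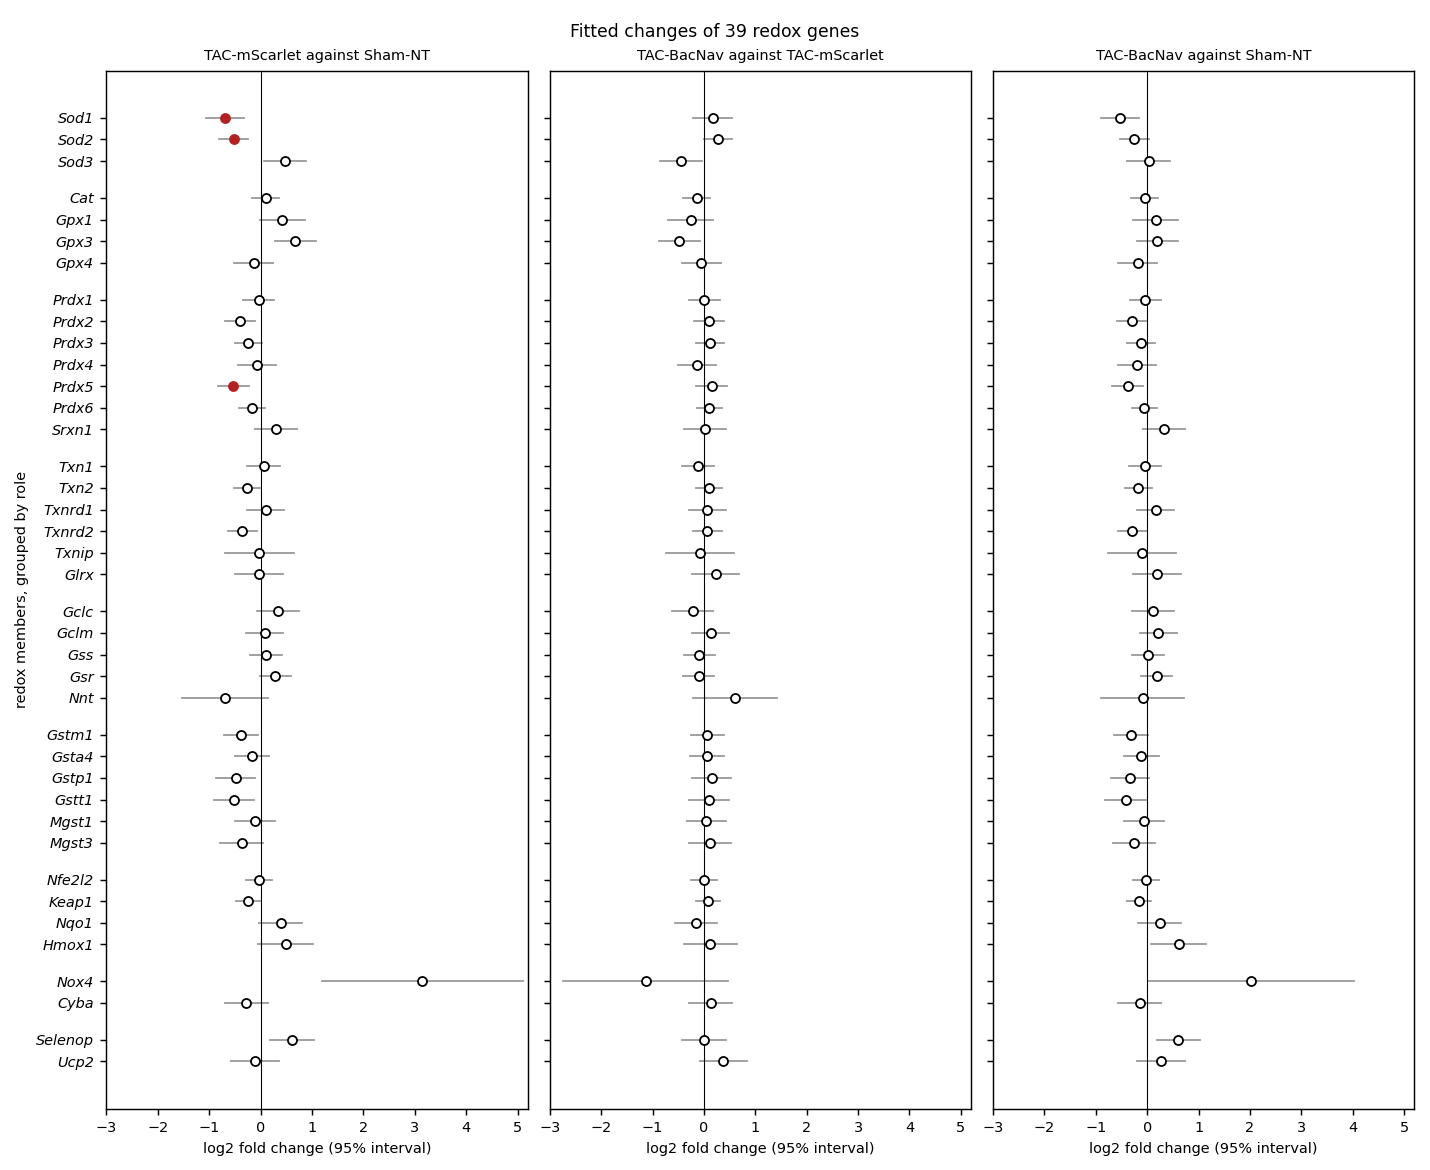
Fitted log2 fold changes of the 39 redox genes with 95% intervals, grouped by role, for TAC-mScarlet against Sham-NT (left), TAC-BacNav against TAC-mScarlet (middle) and TAC-BacNav against Sham-NT (right). Filled red points are the 3 called genes (Sod1, Sod2 and Prdx5, left panel), and open points did not pass an adjusted p of 0.05.

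The second comparison, TAC-BacNav against TAC-mScarlet, asks what the channel added in overloaded ventricles. No redox gene was called (0 of 39, and 0% of all 13910 genes), and each member had an adjusted p of 0.999. At an unadjusted p below 0.05 stood 2 members, Gpx3 and Sod3, both lower in TAC-BacNav, beside 3.36% of all genes (467), and DESeq2 and limma-voom called no member either. The members' median was 0.07 on the log2 scale, beside 0.0037 over all genes, with 25 values above 0 and 14 below. The 95% interval lay within 0.5 on the log2 scale of no change for 23 members and within 1 for 37, all but Nnt and Nox4. For the rest the data leave room for larger differences.

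Gpx3 had 314, 327, 361 and 333 CPM in TAC-BacNav, against 384, 315, 671 and 489 CPM in TAC-mScarlet. TAC-mScarlet 1, 3 and 4 exceeded all TAC-BacNav libraries, and TAC-mScarlet 2 lay among them. The log2 fold change was -0.48 ± 0.19 (unadjusted p = 0.0224 by edgeR), and with 1 library left out it ran from -0.62 to -0.25. Sod3 had 28.8, 28.1, 39.7 and 32.5 CPM in TAC-BacNav, against 33.6, 31.9, 57.9 and 52.6 CPM in TAC-mScarlet, with overlapping groups (-0.45 ± 0.19, unadjusted p = 0.0327 by edgeR).

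Sod2 was the only member whose libraries did not overlap, higher in TAC-BacNav, where 1.7% of all genes had such a separation, 0.762% as higher and 0.935% as lower. It had 747, 687, 679 and 656 CPM in TAC-BacNav, against 639, 581, 438 and 636 CPM in TAC-mScarlet. Mean levels were 692 ± 38.9 CPM in TAC-BacNav and 573 ± 94.1 CPM in TAC-mScarlet (SD, n = 4 each), with a log2 fold change of 0.27 ± 0.13 and a 95% interval from -0.0049 to 0.55. Ucp2 came next by p, with 55.2, 57.0, 80.5 and 90.9 CPM in TAC-BacNav, against 41.8, 44.2, 58.7 and 73.6 CPM in TAC-mScarlet. Its groups overlapped (0.38 ± 0.22, unadjusted p = 0.100 by edgeR).

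For the other 2 genes called against Sham-NT, the intervals spanned 0. Sod1 had 382, 371, 392 and 250.2 CPM in TAC-BacNav, against 329, 304, 300 and 308 CPM in TAC-mScarlet. TAC-BacNav 1, 2 and 3 were above all TAC-mScarlet libraries and TAC-BacNav 4 was below them all (0.17 ± 0.18, 95% interval -0.20 to 0.54). Prdx5 had 473, 438, 464 and 321 CPM in TAC-BacNav, against 417, 358, 366 and 386 CPM in TAC-mScarlet, with the same library apart from the rest (0.15 ± 0.14, 95% interval -0.15 to 0.45).

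Nox4 had 2.56, 1.81, 10.3 and 10.9 CPM in TAC-BacNav, against 2.75, 8.15, 32.1 and 13.1 CPM in TAC-mScarlet. TAC-BacNav split into 2 low and 2 high libraries, and the fold change could not be told from 0 (-1.13 ± 0.73, 95% interval -2.73 to 0.48). Cyba had 36.5, 36.5, 42.4 and 26.4 CPM in TAC-BacNav and gave 0.13 ± 0.20. Within the NRF2 pathway, Nfe2l2 had 129, 99.2, 112 and 121 CPM in TAC-BacNav and gave 0.0084 ± 0.12 against TAC-mScarlet, with a 95% interval from -0.25 to 0.26. Nqo1 had 101, 162, 125 and 130 CPM in TAC-BacNav (-0.15 ± 0.19), and Hmox1 had 7.90, 11.0, 8.53 and 15.4 CPM (0.13 ± 0.24). Txnip had 726, 663, 369 and 463 CPM in TAC-BacNav (-0.08 ± 0.31). Selenop, at 422, 362, 238 and 436 CPM in TAC-BacNav, gave -0.0016 ± 0.20. All 6 glutathione transferases had values above 0, from 0.04 to 0.15, and 6 of 7 peroxiredoxin and sulfiredoxin genes did, none of them called. These signs were not stable: with 1 library left out, each of the 6 transferases went below 0 in some fit, as did Prdx1 and Srxn1. Of all genes tested, 49.2% had values below 0 in this comparison.

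**Figure D3:**
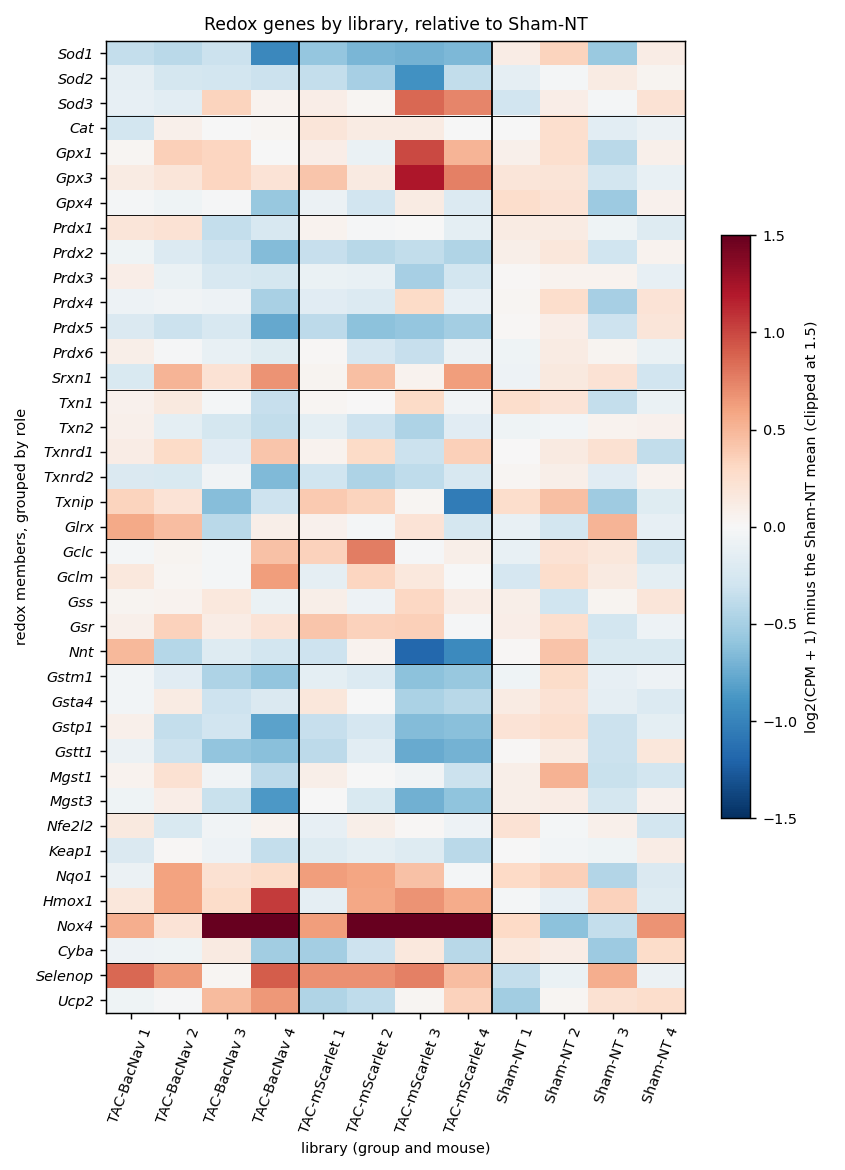
Level of each redox gene in each library as log2(CPM + 1) minus the mean of the Sham-NT libraries, with genes in rows by role and libraries in columns by group; red is higher, blue lower, and colours are clipped at 1.5. The Sod1 and Prdx5 rows are blue in every TAC-mScarlet library, and TAC-BacNav 4 and TAC-mScarlet 3 hold many of the extreme cells. The Nox4 row is red in all 8 TAC libraries but also in Sham-NT 1 and 4. Sham-NT 4 (2.88 CPM) exceeds TAC-mScarlet 1 and TAC-BacNav 1 and 2, and Nox4 was not called.

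The third comparison, TAC-BacNav against Sham-NT, shares the Sham-NT libraries with the first and the TAC-BacNav libraries with the second, so its values are no separate evidence. None of the 39 members passed the test, where 0.0144% of all genes did, and 8 members had an unadjusted p below 0.05 by edgeR, beside 11.1% of all genes. Sod1 gave -0.53 ± 0.18 (adjusted p = 0.367), Prdx5 -0.38 ± 0.14 (adjusted p = 0.391) and Sod2 -0.25 ± 0.13 (adjusted p = 0.484), against -0.70, -0.53 and -0.52 in TAC-mScarlet against Sham-NT. Sod2 was the only member without overlap, lower in TAC-BacNav, where 5.44% of all genes had such a separation, 3.08% as higher and 2.36% as lower. Selenop gave 0.61 ± 0.20 (adjusted p = 0.367), Hmox1 0.61 ± 0.25 (adjusted p = 0.411) and Nox4 2.02 ± 0.91 (adjusted p = 0.449). The members' median was -0.06, beside 0.0079 over all genes.

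Redox genes outside the 39 were read from a list of 91 symbols, of which 88 were in the tables and all 88 were tested. In TAC-mScarlet against Sham-NT 7 of the 88 were called (7.95%, against 5.17% of all genes), 4 higher and 3 lower, and their median was 0.0046. Cygb, a globin of fibroblasts and related cells, averaged 140.1 ± 27.3 CPM in TAC-mScarlet and 74.8 ± 11.5 CPM in Sham-NT (0.90 ± 0.15, adjusted p = 0.0150). Mafk, a small MAF protein that pairs with NRF2, rose by 0.82 ± 0.18 (adjusted p = 0.0236), Txndc5, a protein disulphide isomerase of the endoplasmic reticulum, by 0.60 ± 0.15 (adjusted p = 0.0372), and Ncf1, a subunit of the phagocyte NADPH oxidase, by 0.91 ± 0.25 (adjusted p = 0.0442). Maob, a monoamine oxidase of the outer mitochondrial membrane that releases hydrogen peroxide, averaged 41.4 ± 9.65 CPM in TAC-mScarlet and 83.3 ± 9.32 CPM in Sham-NT (-1.01 ± 0.17, adjusted p = 0.0148). Alkbh7, a mitochondrial dioxygenase family protein, fell (-0.78 ± 0.17, adjusted p = 0.0256), as did Gstk1, the mitochondrial and peroxisomal glutathione transferase (-0.88 ± 0.23, adjusted p = 0.0399). Each of the 7 had no overlap between the groups' libraries. Leaving out mouse 2 of Sham-NT left none of the 88 called, and leaving out mouse 4 of Sham-NT left 1 (Cygb), mouse 3 of TAC-mScarlet 2, mouse 4 of TAC-mScarlet 3 and mouse 1 of Sham-NT 4, whereas DESeq2 called 13.

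In the other comparisons none of the 88 was called. The smallest p in TAC-BacNav against TAC-mScarlet were those of Maob (0.50 ± 0.17), Mafk (-0.51 ± 0.17) and Ggt5, an enzyme of glutathione breakdown (0.53 ± 0.25), all with an adjusted p of 0.999 by edgeR. In TAC-BacNav against Sham-NT they were those of Cygb (0.62 ± 0.15, adjusted p = 0.345), Maob (-0.51 ± 0.17, adjusted p = 0.367) and Sesn3, a sestrin (0.44 ± 0.15, adjusted p = 0.367).

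Some members followed a split of the libraries that crosses the groups. Fos, an immediate early gene, stood at 54.8 to 301 CPM in 7 libraries (TAC-BacNav 1 and 2, TAC-mScarlet 1, 2 and 3, Sham-NT 1 and 2) and at 1.60 to 7.88 CPM in the other 5. For 4 of the 39 members (10.3%) the 2 sets of libraries did not overlap, beside 2.62% of all genes tested. Txnip ran from 588 to 788 CPM in the 7 libraries and from 277 to 507 CPM in the 5. Prdx1 ran from 572 to 678 CPM against 452 to 556 CPM, and Txn1 from 110.4 to 134 CPM against 85.1 to 107 CPM. Ucp2 was the opposite, at 40.0 to 58.7 CPM in the 7 and 68.0 to 90.9 CPM in the 5. Mice 1 and 2 are on the high side and mouse 4 on the low side in all 3 groups, so the split largely follows the mouse number. These sets were drawn from the data and are not groups of the study. With the split as a factor in the fit, 9 members were called in TAC-mScarlet against Sham-NT, with Gpx3 and Nox4 higher and Gstm1, Gstp1, Gstt1, Prdx2, Prdx5, Sod1 and Sod2 lower, among 1456 genes in all.

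**Figure D4:**
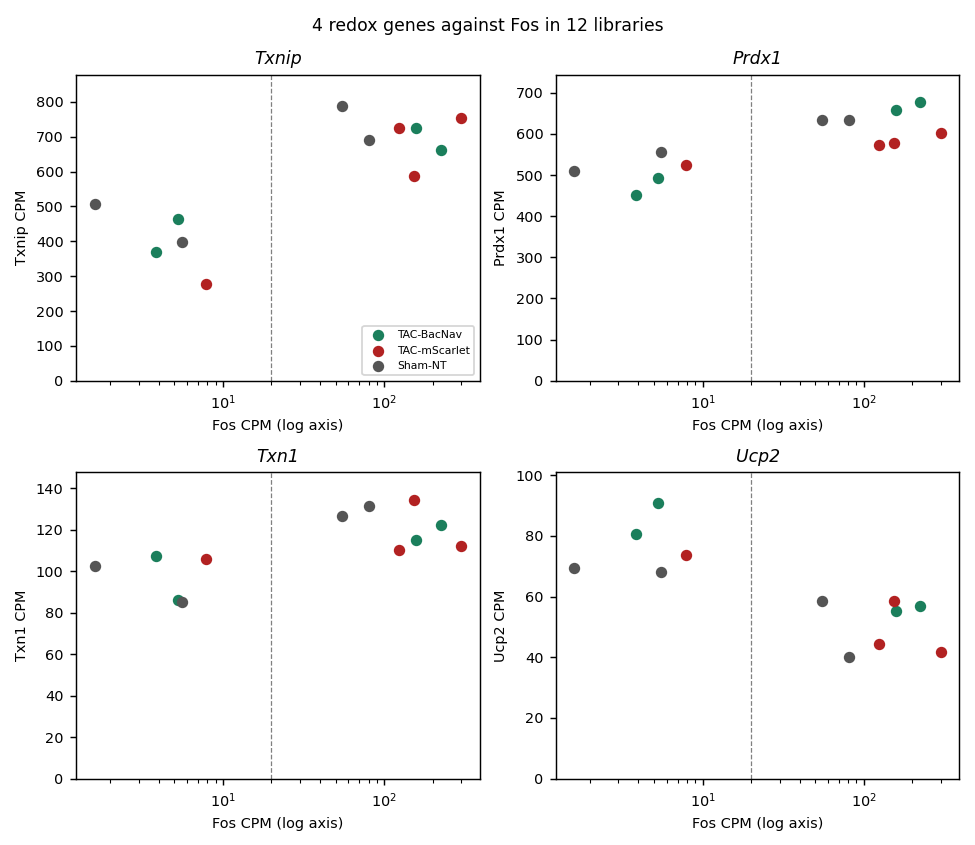
CPM of Txnip, Prdx1, Txn1 and Ucp2 (linear axes from 0) against Fos CPM (log axis) in the 12 libraries, coloured by group, with a dashed line at 20 CPM. Right of the line Txnip, Prdx1 and Txn1 are higher and Ucp2 lower than in any library left of it, and each group has libraries on both sides.

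Within groups, the coefficient of variation of a member had a median of 17.4% in TAC-BacNav, 14.2% in TAC-mScarlet and 16.2% in Sham-NT. Nox4 varied most in each group, at 76.3% in TAC-BacNav, 91.1% in TAC-mScarlet and 66.0% in Sham-NT. The steadiest were Sod2 in TAC-BacNav (5.61%), Prdx2 in TAC-mScarlet (3.27%) and Txn2 in Sham-NT (4.53%). TAC-BacNav 4 was the lowest of the 12 libraries for 8 members and the highest for 6, and TAC-mScarlet 3 the lowest for 8 and the highest for 7. Sham-NT 3 was the lowest for 7 members and Sham-NT 2 the highest for 11.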

How the data were processed

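Whole-number counts per gene, one table per mouse, were used as the authors deposited them. HISAT2 alignment and featureCounts counting are named in the submitters' processing notes; the strand setting and the handling of multi-mapped reads were not given in the sources used here. Those notes name GRCh38, whereas the identifiers are mouse, and 14474 of 14957 matched GENCODE release M21 (GRCm38) with their version. Every gene had at least 30 counts in all and was above 0 in at least 6 libraries. Groups came from the sample titles, each library a separate mouse, and all libraries of a group differed by more than counting noise (chi-square over degrees of freedom at least 5.70).

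Counts were tested in edgeR 4.0.16 (R 4.3.3): filterByExpr by group kept 13910 genes and removed 1047, and one robust quasi-likelihood fit of all 12 libraries with TMM scaling gave 3 two-sided comparisons, adjusted by Benjamini-Hochberg over all genes tested. The common biological coefficient of variation was 0.203. SE is the absolute log2 fold change over the root of its F statistic, and 95% intervals use it. CPM are TMM-scaled unless stated. The fit was also run on simulated counts, and as the outcome is not given here, it does not bear on the members that did not pass. Alternatives were DESeq2 1.42.0, limma-voom (limma 3.58.1), 2 other scalings, no filter, the mouse number as a block, the Fos split as a factor, a fit of the compared groups alone, and each library left out. Gene copies were sought with BLAST 2.17.0 at 95% identity over at least 200 bases, and exon overlaps in GENCODE: 10 members overlap another gene's exons and 7 have near-identical copies. For Gpx4, Gstm1, Gstp1, Prdx1, Sod1 and Txn1 a copy was counted as a gene of its own.

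The members, the other redox list and the marker lists were chosen with earlier results of these data known. Values per library are given for members called in any comparison, the 4 with the smallest p in TAC-BacNav against TAC-mScarlet, and Nox4, Cyba, Nqo1, Hmox1, Nfe2l2 and Txnip; members given per library beyond these (Selenop, Prdx2 and Nnt) were chosen after their values were seen. None of the 3 adipocyte markers listed was among the genes of the count tables.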

Additional observations from a re-analysis of the deposited data

Results flagged for a closer look

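Within groups of 4, 8 of 117 sets of values of a member held a library far from the other 3 by Dixon's criterion, which chance alone meets in about 1 of 20 sets. TAC-BacNav 4 gave 4 of them. It was the lowest of its group for Sod1, at 250.2 CPM with the others between 371 and 392 CPM, for Gpx4, at 675 CPM with the others between 962 and 989.9 CPM, and for Prdx4, at 29.1 CPM with the others between 38.8 and 39.7 CPM. It was the highest for Gclc, at 23.4 CPM, with the others between 16.6 and 17.5 CPM. TAC-mScarlet 3 was the highest of its group for Prdx4, a peroxiredoxin of the endoplasmic reticulum, at 50.4 CPM with the others between 35.4 and 37.6 CPM. TAC-mScarlet 4 was the lowest for Gsr, at 26.5 CPM with the others between 34.4 and 35.9 CPM. Sham-NT 2 was the highest for Gstm1, at 342 CPM with the others between 259.5 and 270.2 CPM, and Sham-NT 3 the lowest for Mgst3, at 266 CPM with the others between 334 and 344 CPM. TAC-BacNav 4 was the deepest library, at 11.5 M (mega-counts), and had the lowest cardiomyocyte marker sum of its group, 57055 CPM. The part of these in its values was not tested.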

How the results depend on the processing

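In TAC-mScarlet against Sham-NT, where 3 members and 719 genes were called, limma-voom called 1 member (Sod2) and 475 genes, DESeq2 7 members (Gpx3, Nox4 and Selenop higher, Prdx2, Prdx5, Sod1 and Sod2 lower) and 1371 genes, and the fit with the Fos split 9 members and 1456 genes. With 1 library left out, 0 to 5 members and 14 to 1055 genes were called. Of all genes, 256, 14 and 20 were called with mouse 1, 2 or 4 of Sham-NT left out, and 97 and 228 with mouse 3 or 4 of TAC-mScarlet left out; the 5 members without Sham-NT 3 were Selenop, higher, and Prdx2, Prdx5, Sod1 and Sod2, lower. TAC-mScarlet 2 left out gave 1 member, Gpx3. Each fit with 1 library left out has fewer data than the main fit, and the cause of these differences was not tested.

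No member was called in TAC-BacNav against TAC-mScarlet or TAC-BacNav against Sham-NT under any alternative run. Over all genes, DESeq2 called 5 in the first of these and 38 in the second, and the fit of the compared groups alone called 1 in each. In TAC-BacNav against Sham-NT, with 2 genes called, the Fos split gave 8, and leaving out 1 library gave 0 to 15. The cause was not tested.

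The mouse numbers were not taken to pair the libraries, although the Fos split largely follows them: correlations of same-numbered libraries ran from -0.02 to 0.38 in TAC-BacNav against TAC-mScarlet, from -0.29 to 0.26 in TAC-mScarlet against Sham-NT and from -0.20 to 0.20 in TAC-BacNav against Sham-NT, not all above 0.1 in any of them, and not every library correlated best with its own number. With the number as a replicate block, 3 members were called in TAC-mScarlet against Sham-NT, among 888 genes. Nox4 was higher, at 3.01 (adjusted p = 0.00951), Sod1 and Sod2 were lower, and Prdx5 was not called (adjusted p = 0.0556). The block called 6 genes in TAC-BacNav against TAC-mScarlet, none of them members. For TAC-BacNav against Sham-NT it called 12 genes, again without a member.

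Under library-size scaling 7 members with small values changed sign in TAC-mScarlet against Sham-NT (Prdx1, Prdx4, Txnip, Glrx, Mgst1, Nfe2l2 and Ucp2), none of them called. The rarest members per kilobase, Nox4 and Nnt, had few counts, from 3 to 18 for Nox4 in Sham-NT and from 13 to 38 for Nnt in TAC-mScarlet. The part of depth in their values was not tested.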
